A study of Mus musculus with 15 samples.

Results

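The 10 genes Pax3, En1, En2, Irx1, Irx2, Irx3, Irx5, Zic1, Zic2 and Zic4, which encode midbrain and hindbrain patterning transcription factors, were followed across 3 brain regions of the adult mouse. They were taken by name from the 18193 genes that the arrays measured, and all 10 had at least 1 probe set. In the embryo these genes give the neural tube its regional identity. Engrailed genes are switched on around the boundary between midbrain and hindbrain and are needed to build the tectum and cerebellum, Iroquois genes divide the neural tube into territories, and Pax3 and the Zic genes mark its dorsal side. The cerebellum, which grows from the dorsal hindbrain, keeps several of them in adult cells.

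The arrays measured RNA of Gli1+GFAP+ astroglia sorted from male mice aged 6 to 8 weeks of the genotype Gli1-CreER;GFAP-GFP;R26tdTomato. All groups received tamoxifen (2 doses, 10 mg each), and cells were taken 3 weeks later from the subventricular zone (SVZ), the hippocampus or the cerebellum, with 5 arrays per region. The recombinase is driven by Gli1, a target of Shh signalling, and marks the cells with a lasting tdTomato label, whereas the GFP reporter follows the GFAP promoter, so the sorted cells are those in which both promoters had worked. Every array carried RNA pooled from 10 to 12 mice, and nothing in the labels says whether pools of different regions share mice, so p values measure the spread between these pools. The series asked which genes the SVZ and hippocampus, the regions that hold adult stem cells, share against the cerebellum, and region and stem cell presence cannot be told apart in that design.

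Levels are log2 array signals, on which a difference of 1 is a doubling. The median of all probe sets lay between 1.12 and 1.31 on each array. Such medians are low for RMA, and what lowered them is not known. They stand for background here, and a level above 3 was taken as clearly expressed. Signals near background can compress differences, and the scale of low signals is uncertain here. Folds of dim genes therefore do not give the size of a difference in RNA. Between 15.14% and 22.45% of probe sets passed 3 on an array, and the cerebellum arrays had the highest shares. Astrocyte markers checked the label of the sorted cells, and 10 of 10 had a mean above 3 in all 3 regions. Probes differ in how they bind, so no level of one gene is set against that of another. In a mixed population of sorted cells, fewer cells with a transcript and less transcript per cell cannot be told apart.

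Several of the 10 genes sit as neighbours in the genome (mouse build GRCm38.p6). Zic1 (chr9:91358058-91365768) and Zic4 (chr9:91365631-91389351) lie on opposite strands and overlap by 138 bases in the annotation, and their annotated starts used here are 3.2 kb apart. Irx1 (chr13:71958232-71963723) and Irx2 (chr13:72624430-72634196) are separated by 660.7 kb, and Irx3 (chr8:91798511-91801654) and Irx5 (chr8:92357796-92361456) by 556.1 kb. Pax3 (chr1:78101267-78197136) and En1 (chr1:120602487-120607991) are on one chromosome at a distance, En2 is at chr5:28165696-28172190 and Zic2 at chr14:122475384-122480328, where Zic5 is 9.7 kb away. The RefSeq promoter table held 5 of the 10 genes, En1, Irx2, Irx3, Zic1 and Zic4. The 250 bases before the transcript start of that table are printed for 4 of them, 5′ to 3′ on the strand of the gene. For Irx2 and Zic4 that start lies 4.4 kb and 3.3 kb inside the gene span given above, which begins further upstream. Zic1 and Zic4 are shown because they are neighbours whose signals in cerebellum were higher than in SVZ, Irx2 because it is the Iroquois gene with a cerebellum mean above 3, and En1 because it stayed at background on all but 1 array. Capitals mark the CCAAT box (CCAAT), the GC box (GGGCGG) and the E-box (CACGTG) on either strand, and no matches overlapped.
Zic1 promoter, chr9:91365769-91366018, minus strand: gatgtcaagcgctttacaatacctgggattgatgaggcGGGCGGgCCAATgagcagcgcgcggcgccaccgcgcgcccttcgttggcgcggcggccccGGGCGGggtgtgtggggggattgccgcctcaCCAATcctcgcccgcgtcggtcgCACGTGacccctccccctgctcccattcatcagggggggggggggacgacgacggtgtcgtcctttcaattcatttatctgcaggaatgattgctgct
Zic4 promoter, chr9:91368722-91368971, plus strand: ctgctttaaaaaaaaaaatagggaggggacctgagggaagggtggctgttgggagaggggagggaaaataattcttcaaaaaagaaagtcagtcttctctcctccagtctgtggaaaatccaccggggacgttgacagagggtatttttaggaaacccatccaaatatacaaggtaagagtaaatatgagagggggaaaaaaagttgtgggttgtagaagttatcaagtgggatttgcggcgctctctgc
Irx2 promoter, chr13:72628570-72628819, plus strand: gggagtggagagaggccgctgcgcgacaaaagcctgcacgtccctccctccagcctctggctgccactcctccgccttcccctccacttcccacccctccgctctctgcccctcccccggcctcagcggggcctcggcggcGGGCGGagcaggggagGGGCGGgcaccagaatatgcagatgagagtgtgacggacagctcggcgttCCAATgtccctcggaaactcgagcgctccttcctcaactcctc
En1 promoter, chr1:120602237-120602486, plus strand: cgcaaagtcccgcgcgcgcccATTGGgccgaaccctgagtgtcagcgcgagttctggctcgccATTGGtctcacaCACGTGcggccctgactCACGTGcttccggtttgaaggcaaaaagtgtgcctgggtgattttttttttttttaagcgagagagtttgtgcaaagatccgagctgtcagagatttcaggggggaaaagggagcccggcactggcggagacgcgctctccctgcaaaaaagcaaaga
The Zic1 window held 2 CCAAT boxes, 2 GC boxes and 1 E-box, with 27 CpG and a GC content of 66.0%. The Zic4 window held 0 of these motifs, 4 CpG and 44.4% GC, which makes the neighbours unlike in base composition. Irx2 had 1 CCAAT box, 2 GC boxes, 19 CpG and 68.4% GC. En1 had 2 CCAAT boxes, 2 E-boxes, 19 CpG and 56.0% GC. Irx3, which is not printed, had 13 CpG, 56.0% GC and 0 matches. Of 32851 promoter windows of this length, 33.8% held CCAAT, 32.7% GGGCGG and 6.02% CACGTG on either strand, and the median window had 6 CpG and 52.4% GC. A homeodomain core (TAATTA, in 4.84% of windows) and the Gli site (GACCACCCA, in 0.225%) were also searched on both strands and had 0 matches in the 5 windows. A match describes the letters and is no evidence that a factor binds.

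Of the 10 genes, Pax3, En2, Irx2, Irx5 and Zic4 were higher in cerebellum than in both forebrain regions. Zic1, Zic2 and Irx1 were higher in cerebellum than in 1 of them, and En1 and Irx3 passed in neither comparison. How many of all genes passed in both comparisons was not counted. Against SVZ, 7 were higher in cerebellum (Pax3, En2, Irx2, Irx5, Zic1, Zic2 and Zic4), 0 were lower, and En1, Irx1 and Irx3 did not pass. By the same test, limma over all genes at a Benjamini-Hochberg adjusted p under 0.05, 4.47% of all genes were lower in SVZ than in cerebellum. Against hippocampus, 6 were higher in cerebellum (Pax3, En2, Irx1, Irx2, Irx5 and Zic4), beside 3.97% of all genes lower in hippocampus, and En1, Irx3, Zic1 and Zic2 did not pass. The median difference of the 10 genes was -1.20 in SVZ minus cerebellum and -1.28 in hippocampus minus cerebellum, where the median of all genes was 0.07 in both. Both comparisons use the same 5 cerebellum arrays and so do not count as separate evidence. The 10 genes, and the lists used below, were chosen with earlier results of these data known. Their counts beside the shares of all genes are therefore descriptive and no test of enrichment. The series design set its own rule, a change of over 4-fold with an unadjusted p below 0.01. By it Pax3, Zic1 and Zic2 were lower in SVZ than in cerebellum, and the same 3 genes were lower in hippocampus than in cerebellum. That is 3 of 10 in each comparison, where 2.55% and 2.45% of all genes passed in that direction.

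**Figure D1:**
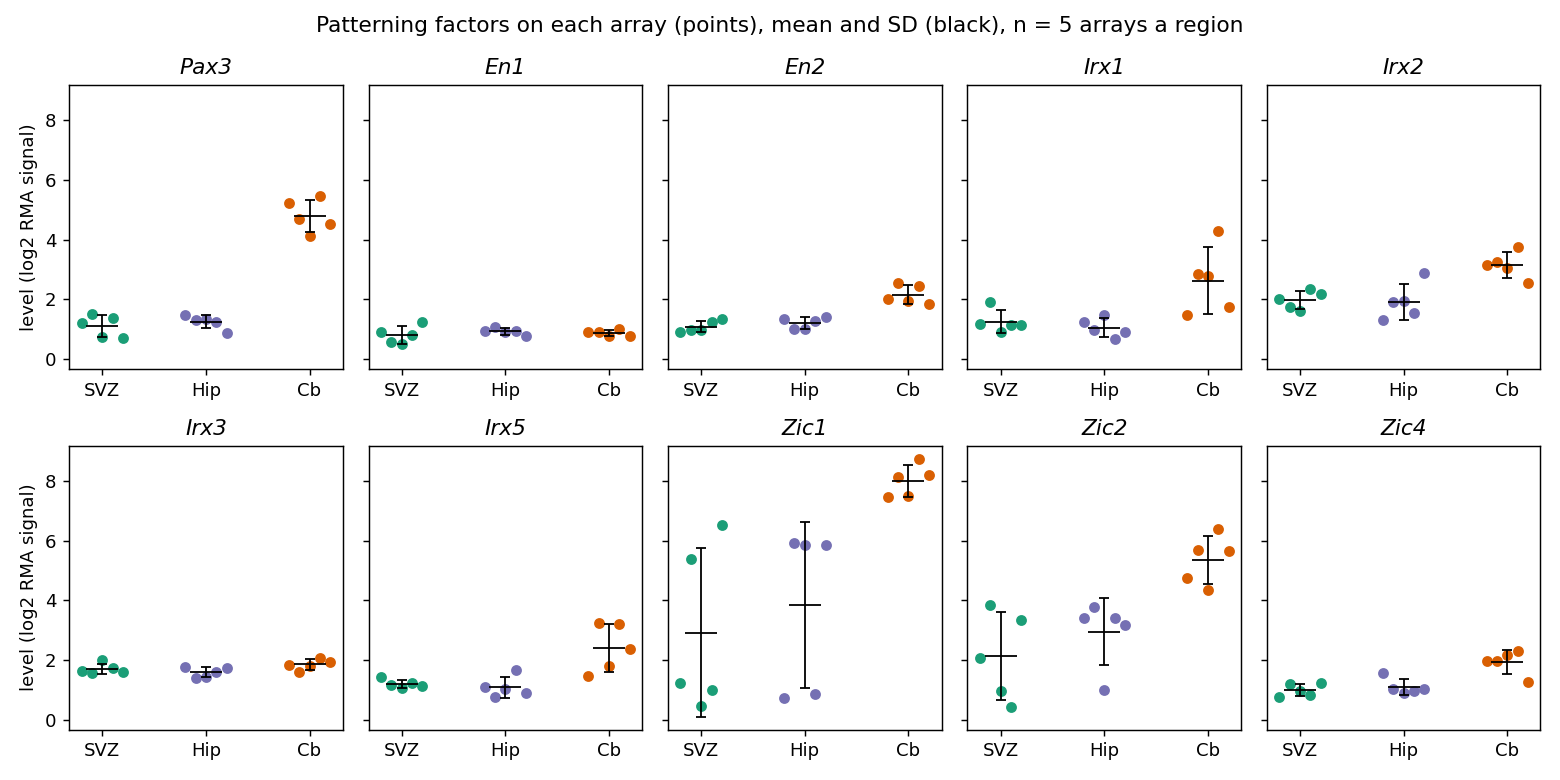
Level of each of the 10 genes on each array (log2 signal), by region, 5 arrays per region, with bars for the region mean and SD. Pax3 and Zic2 lie higher on all 5 cerebellum arrays than on any SVZ or hippocampus array, the Zic1 signals in SVZ and hippocampus fall into a high and a low cluster, and En1 stays between 0.51 and 1.26 everywhere.

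**Figure D2:**
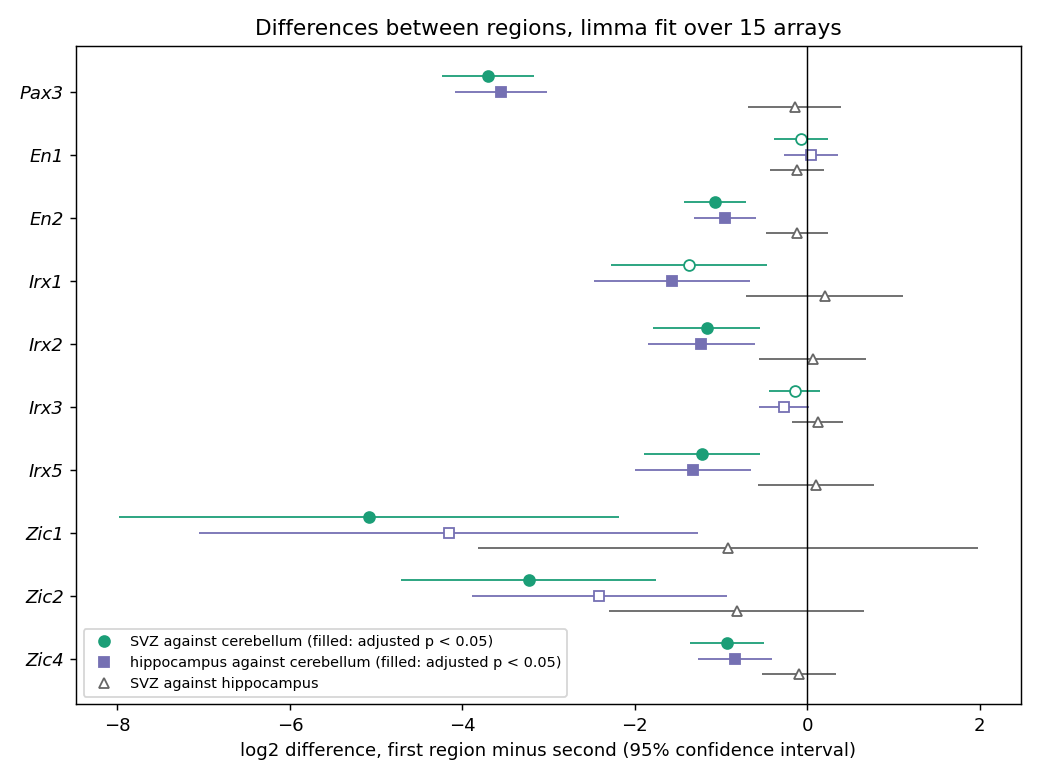
Difference in level (log2) of each gene for SVZ minus cerebellum, hippocampus minus cerebellum and SVZ minus hippocampus, with 95% confidence intervals from limma. Pax3 has the narrowest interval relative to its size, at -3.70 and -3.55 against cerebellum, and all 10 intervals between SVZ and hippocampus include 0.

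Pax3 encodes a paired-domain transcription factor of the dorsal neural tube and neural crest. On SVZ arrays 1 to 5 it measured 1.20, 1.51, 0.75, 1.38 and 0.71, and on hippocampus arrays 1 to 5 it measured 1.49, 1.32, 1.33, 1.26 and 0.89. On cerebellum arrays 1 to 5 it measured 5.24, 4.70, 4.13, 5.45 and 4.53. The forebrain signals were spread around the array medians, all 5 cerebellum signals were far above them, and the groups did not overlap. Non-overlap in this direction was found for 6.02% of all genes between SVZ and cerebellum and for 5.3% between hippocampus and cerebellum. The Pax3 signal was 13.0-fold higher in cerebellum than in SVZ (log2 difference, SVZ minus cerebellum, -3.70 ± 0.25 SE, limma adjusted p = 8.57e-07). It was 11.7-fold higher than in hippocampus (-3.55 ± 0.25 SE, adjusted p = 1.17e-06). Pax3 was above the array median on 2 SVZ and 3 hippocampus arrays and above 2 on 0 of them. These folds therefore compare cerebellum with background and do not give the size of the difference in RNA. The same holds for the forebrain signals of En2, Irx1, Irx5 and Zic4, with 0 forebrain arrays above 2. With n = 5 arrays per region the Pax3 means were 1.11 ± 0.36 (SD) for SVZ, 1.26 ± 0.22 for hippocampus and 4.81 ± 0.54 for cerebellum.

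Pax3 had 3 probe sets, and those not used for the values above gave the same direction. The probe set 1420389_at was lower by 2.97 on the log2 scale in both forebrain regions (limma log2 difference -2.97 in each, adjusted p over all probe sets 1.05e-05 for SVZ and 8.42e-06 for hippocampus). The probe set 1430335_a_at gave -2.11 and -1.89 (adjusted p = 0.00659 and 0.0138). On that probe set cerebellum 1 measured 1.23 while the other cerebellum arrays measured between 2.83 and 3.99, although the same array read 5.24 on the probe set used. Its gap of 4.01 was the largest between any Pax3 probe sets on one array. The Pax3 difference passed the threshold in both comparisons when any 1 array was left out, with an adjusted p of at most 6.34e-06 against SVZ and 8.44e-06 against hippocampus.

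**Figure D3:**
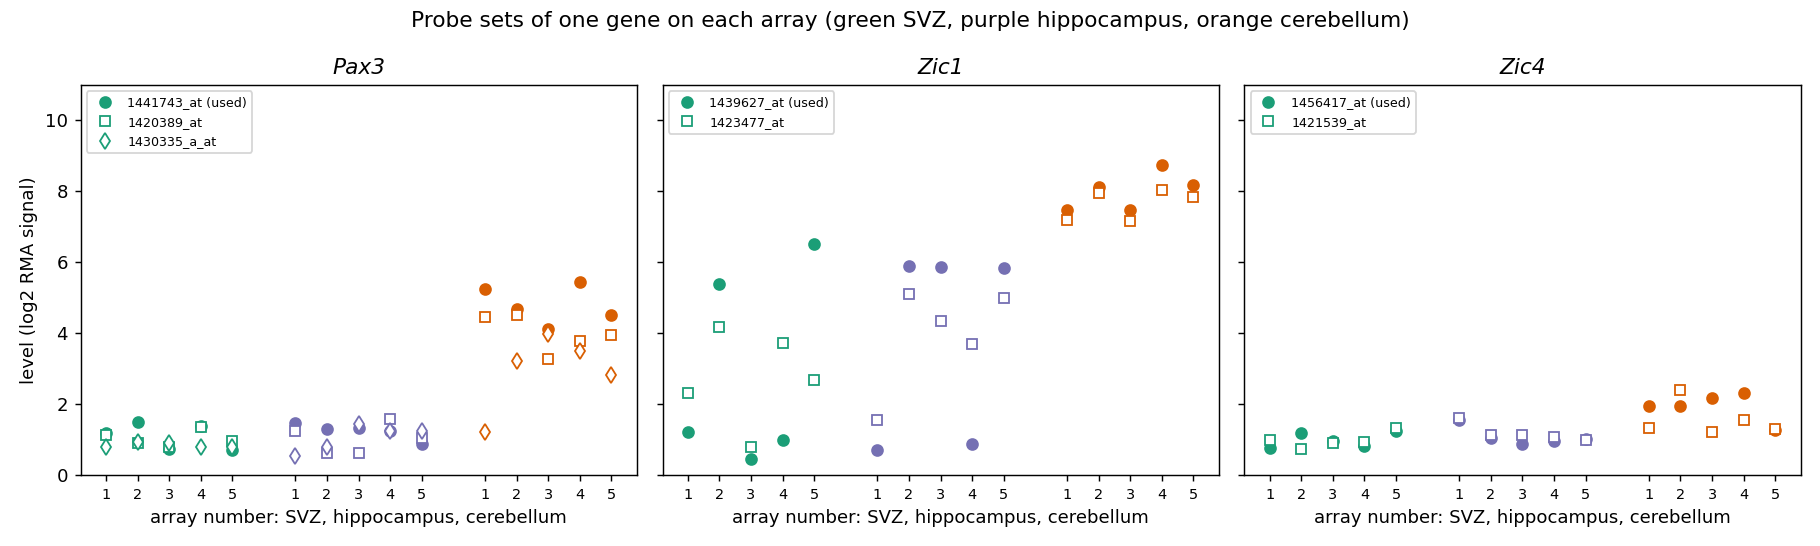
Level on each array (log2 signal) by each probe set of Pax3, Zic1 and Zic4, the members with more than 1, grouped by region. The Pax3 probe sets part on cerebellum 1, the Zic1 probe sets part on SVZ 5 (6.53 and 2.70), and both Zic4 probe sets stay close to background.

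The Engrailed genes, homeobox repressors of the midbrain-hindbrain boundary, differed in what could be measured. En2 on SVZ arrays 1 to 5 measured 0.92, 0.96, 0.98, 1.24 and 1.34, and on hippocampus arrays 1 to 5 it measured 1.34, 1.00, 1.01, 1.29 and 1.40. The cerebellum arrays 1 to 5 gave 2.00, 2.54, 1.94, 2.46 and 1.85. All 5 cerebellum signals were above all 10 forebrain signals, although no array passed 3, so En2 is a dim gene even in cerebellum. It was 2.10-fold higher in cerebellum than in SVZ (log2 difference -1.07 ± 0.17 SE, limma adjusted p = 0.00185) and 1.93-fold higher than in hippocampus (-0.95 ± 0.17 SE, adjusted p = 0.0041). Leaving out any 1 array kept both calls, with adjusted p of at most 0.0068 and 0.0145. With values below 2 set to 2, which removes most of its range, the adjusted p was 0.424 and 0.477.

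En1, the other Engrailed gene, was not detected above background by its probe set. Its level on SVZ arrays 1 to 5 was 0.92, 0.57, 0.51, 0.80 and 1.26. On hippocampus arrays 1 to 5 it was 0.95, 1.08, 0.90, 0.95 and 0.76, and on cerebellum arrays 1 to 5 it was 0.90, 0.90, 0.79, 1.02 and 0.79. En1 passed the array median on 1 SVZ array, on 0 hippocampus arrays and on 0 cerebellum arrays, and the 3 groups overlapped. The log2 difference was -0.07 for SVZ minus cerebellum (adjusted p = 0.809) and 0.05 for hippocampus minus cerebellum (adjusted p = 0.864). At this signal the probe set could not show whether En1 RNA differed between regions.

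The Iroquois genes encode homeodomain proteins that lie in a pair of genomic clusters, with Irx1 and Irx2 in one and Irx3 and Irx5 in the other. Irx2 on SVZ arrays 1 to 5 measured 2.01, 1.76, 1.60, 2.36 and 2.18, and on hippocampus arrays 1 to 5 it measured 1.31, 1.92, 1.94, 1.53 and 2.90. On cerebellum arrays 1 to 5 it measured 3.15, 3.24, 3.05, 3.76 and 2.55. All cerebellum arrays lay above all SVZ arrays, and only hippocampus 5, at 2.90, reached into the cerebellum range. Irx2 was 2.25-fold higher in cerebellum than in SVZ (log2 difference -1.17 ± 0.29 SE, limma adjusted p = 0.0295) and 2.35-fold higher than in hippocampus (-1.23 ± 0.29 SE, adjusted p = 0.0252). The call against SVZ was lost without SVZ 1, 2 or 3 or cerebellum 1, 2, 3 or 4 (adjusted p between 0.0522 and 0.0786). The call against hippocampus was lost without hippocampus 1, 3 or 4 or cerebellum 1, 2 or 4 (adjusted p between 0.0507 and 0.0704). Both Irx2 calls were also lost after quantile normalization (adjusted p = 0.266 and 0.211), and with a trended and robust variance (0.0732 and 0.0651).

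Irx1, the partner of Irx2 in its cluster, varied most between cerebellum arrays. On SVZ arrays 1 to 5 it measured 1.17, 1.92, 0.90, 1.15 and 1.16, and on hippocampus arrays 1 to 5 it measured 1.25, 0.98, 1.47, 0.68 and 0.92. The cerebellum arrays 1 to 5 gave 1.47, 2.86, 2.80, 4.29 and 1.74. Cerebellum 1 and cerebellum 5 lay near the forebrain signals and cerebellum 4 far above them. Irx1 was 2.97-fold higher in cerebellum than in hippocampus (log2 difference -1.57 ± 0.42 SE, limma adjusted p = 0.0484), but the arrays touched, with both cerebellum 1 and hippocampus 3 at 1.47. This call held in 2 of 15 fits with 1 array left out, those without cerebellum 1 or cerebellum 5, and in the others the adjusted p was between 0.0529 and 0.112. The difference from SVZ did not pass (-1.37 ± 0.42 SE, adjusted p = 0.0764) and passed without cerebellum 1 (adjusted p = 0.0328).

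Irx5 resembled Irx1 in its spread. On SVZ arrays 1 to 5 it measured 1.43, 1.16, 1.06, 1.22 and 1.12, and on hippocampus arrays 1 to 5 it measured 1.09, 0.78, 1.05, 1.68 and 0.89. On cerebellum arrays 1 to 5 it measured 1.48, 3.25, 1.81, 3.21 and 2.36. Cerebellum 1 lay just above the highest SVZ array, and hippocampus 4 lay above cerebellum 1. Irx5 was 2.34-fold higher in cerebellum than in SVZ (log2 difference -1.22 ± 0.31 SE, limma adjusted p = 0.0356) and 2.50-fold higher than in hippocampus (-1.32 ± 0.31 SE, adjusted p = 0.0261). The call against SVZ was lost without SVZ 2, 3, 4 or 5 or cerebellum 2, 4 or 5 (adjusted p between 0.06 and 0.0876). The call against hippocampus was lost without hippocampus 1, 3 or 5 or cerebellum 2, 4 or 5 (adjusted p between 0.0515 and 0.0695). Both Irx5 calls were also lost with values below 2 set to 2 (adjusted p = 0.254 and 0.283) and with only the 2 regions compared (0.0618 and 0.0641).

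Irx3, the neighbour of Irx5, did not follow it. Its level on SVZ arrays 1 to 5 was 1.64, 1.57, 2.00, 1.73 and 1.61. On hippocampus arrays 1 to 5 it was 1.78, 1.42, 1.43, 1.59 and 1.73, and on cerebellum arrays 1 to 5 it was 1.85, 1.62, 1.79, 2.08 and 1.95. All 15 signals were above their array medians and below 3, and the groups overlapped. The log2 difference was -0.15 for SVZ minus cerebellum (95% interval -0.44 to 0.14, limma adjusted p = 0.548) and -0.27 for hippocampus minus cerebellum (-0.56 to 0.02, adjusted p = 0.284).

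The Zic genes encode zinc finger proteins related to the Gli factors, with roles in the dorsal neural tube and in the growth of cerebellar granule cell precursors. Zic1 on SVZ arrays 1 to 5 measured 1.23, 5.40, 0.47, 0.99 and 6.53, and on hippocampus arrays 1 to 5 it measured 0.73, 5.91, 5.86, 0.88 and 5.85. The cerebellum arrays 1 to 5 gave 7.48, 8.12, 7.49, 8.75 and 8.19. The forebrain arrays split, with SVZ 2, SVZ 5 and hippocampus 2, 3 and 5 at 5.40 or more and the other 5 at 1.23 or less, while all cerebellum arrays lay above both clusters. Zic1 was 33.9-fold higher in cerebellum than in SVZ (log2 difference -5.08 ± 1.35 SE, limma adjusted p = 0.0422), a fold that averages high and background SVZ arrays. Without SVZ 3 it was 22.1-fold, without SVZ 2 it was 52.0-fold and without SVZ 5 it was 63.3-fold. Against hippocampus the difference of -4.16 ± 1.35 SE did not pass (adjusted p = 0.1), although the arrays did not overlap. The region means were 2.92 ± 2.82 (SD, n = 5) in SVZ, 3.85 ± 2.78 in hippocampus and 8.01 ± 0.54 in cerebellum.

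The split was narrower on the other Zic1 probe set, 1423477_at. It measured 2.33, 4.19, 0.79, 3.72 and 2.70 on SVZ arrays 1 to 5 and 1.57, 5.10, 4.34, 3.70 and 5.01 on hippocampus arrays 1 to 5. On cerebellum arrays 1 to 5 it measured 7.20, 7.95, 7.18, 8.03 and 7.84. SVZ 4 and hippocampus 4, low on the probe set used, read 3.72 and 3.70 here, and SVZ 5, the highest there, read 2.70. This probe set passed in both comparisons, with -4.89 against SVZ (limma adjusted p over all probe sets = 0.000854) and -3.70 against hippocampus (adjusted p = 0.00677). In the same fit over all probe sets the one used gave adjusted p of 0.0509 and 0.117, so the Zic1 calls differ by probe set. In the fit over genes the Zic1 call against SVZ was lost without SVZ 1, 3 or 4 or any 1 cerebellum array (adjusted p between 0.0696 and 0.0955), and the difference from hippocampus did not pass in any fit with 1 array left out. After quantile normalization the SVZ call was lost as well (adjusted p = 0.0863).

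Zic2, which is needed to close the neural tube and to form the dorsal midline of the forebrain, also varied between forebrain pools. On SVZ arrays 1 to 5 it measured 2.07, 3.86, 0.97, 0.42 and 3.34, and on hippocampus arrays 1 to 5 it measured 3.41, 3.79, 0.99, 3.40 and 3.17. The cerebellum arrays 1 to 5 gave 4.76, 5.68, 4.34, 6.38 and 5.65. All cerebellum arrays lay above all forebrain arrays, and SVZ 3, SVZ 4 and hippocampus 3 were below their array medians. Hippocampus 3 was low for Zic2 but among the high arrays for Zic1, and hippocampus 1 and hippocampus 4 the reverse. Zic2 was 9.38-fold higher in cerebellum than in SVZ (log2 difference -3.23 ± 0.69 SE, limma adjusted p = 0.0138), a call that held without any 1 array. The difference from hippocampus was -2.41 ± 0.69 SE and did not pass (adjusted p = 0.0647). The outcome against hippocampus lay close to the threshold. It passed in 7 of 13 other settings. Among them was the filter on a region mean above 3 (limma adjusted p = 0.0244). Zic2 met that filter only through its cerebellum mean, so that pass is no separate support. The difference also passed in 2 of 15 fits with 1 array left out, without SVZ 2 (adjusted p = 0.0493) and without SVZ 4 (0.0443).

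Zic4, the neighbour of Zic1, was dim throughout. On SVZ arrays 1 to 5 it measured 0.78, 1.20, 0.96, 0.83 and 1.25, and on hippocampus arrays 1 to 5 it measured 1.57, 1.05, 0.89, 0.96 and 1.04. On cerebellum arrays 1 to 5 it measured 1.96, 1.96, 2.18, 2.31 and 1.28. Cerebellum 5 lay just above the highest SVZ array and below hippocampus 1, and all other cerebellum arrays were above all forebrain arrays. Zic4 was 1.91-fold higher in cerebellum than in SVZ (log2 difference -0.93 ± 0.20 SE, limma adjusted p = 0.0141) and 1.79-fold higher than in hippocampus (-0.84 ± 0.20 SE, adjusted p = 0.0282). Its other probe set, 1421539_at, gave -0.58 and -0.37 and did not pass (adjusted p over all probe sets = 0.161 and 0.357). With values below 2 set to 2 both Zic4 differences shrank to -0.10 and did not pass (adjusted p = 0.464 and 0.516). The hippocampus call was also lost without hippocampus 3, 4 or 5 or cerebellum 1, 2, 3 or 4 (adjusted p between 0.0568 and 0.0777).

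Within regions the 10 genes varied together only weakly. Cerebellum 4 gave the highest cerebellum level for 8 of 10, all but En2 and Irx5, which were highest on cerebellum 2. Over the 15 arrays Pearson's r was 0.90 between Pax3 and En2, 0.87 between En2 and Zic4 and 0.87 between En2 and Irx5, values that carry the shared difference between regions. After each region's mean was removed, r over the 45 pairs had a median of 0.19 and ranged from -0.45 (Irx3 and Zic1) to 0.61 (En2 and Irx5), with 38 pairs above 0 and 7 below, and was 0.14 for Pax3 and En2. These points share array, amplification and normalization. The probe set pairs agreed less than fully over the same 15 arrays, with r of 0.86 for Zic1, 0.64 for Zic4 and 0.76 to 0.97 among the Pax3 sets.

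Between SVZ and hippocampus no member passed. limma called 0 of 10 at an adjusted p under 0.05, where 4 of 18193 genes (0.022%) were called, and 0 of 10 had an unadjusted p under 0.05, where 7.02% of all genes did. The intervals differ widely in what they allow. For Pax3 the difference of SVZ minus hippocampus was -0.15 (95% interval -0.68 to 0.39), for En2 -0.12 (-0.48 to 0.24), for Irx3 0.12 (-0.17 to 0.41) and for Zic4 -0.10 (-0.53 to 0.33). The Iroquois genes Irx1, Irx2 and Irx5 gave 0.20 (-0.71 to 1.11), 0.06 (-0.56 to 0.68) and 0.10 (-0.57 to 0.77), and En1 gave -0.12 (-0.43 to 0.20). Zic1 and Zic2 had the widest intervals, -0.92 (-3.82 to 1.98) and -0.82 (-2.30 to 0.66), which leave room for differences of several fold in either direction for Zic1. SVZ and hippocampus therefore cannot be ordered for any of the 10 genes.

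Other genes of the same families gave 0 calls. Of 12 further Pax, Irx and Zic genes 10 were measured, 0 passed by limma against either forebrain region (2 and 1 had an unadjusted p under 0.05), and their median difference was 0.21 for SVZ and 0.15 for hippocampus. Irx4 and Irx6, the remaining Iroquois genes, had cerebellum means of 0.65 ± 0.16 (SD, n = 5) and 0.96 ± 0.18, at or under background. Pax6, a Pax gene of forebrain progenitors and cerebellar granule cells, had means of 2.64 ± 1.84 in SVZ, 5.96 ± 2.64 in hippocampus and 5.56 ± 0.37 in cerebellum, and its difference of -2.92 between SVZ and cerebellum did not pass (limma adjusted p = 0.146). The Pax6 levels differed by probe set. In the same order of regions the means were 3.49, 3.68 and 3.99 on 1437816_at and 2.32, 3.11 and 3.53 on 1419271_at. SVZ minus hippocampus was -0.19 and -0.79 on these probe sets, and the remaining ones were near background. Zic5, beside Zic2, had means of 2.40 ± 0.99, 3.68 ± 1.49 and 4.59 ± 0.76 and did not pass (adjusted p = 0.0721 and 0.439). Another Zic5 probe set, 1456219_at, singled out after its values were seen, gave -2.64 and -2.57 (adjusted p over all probe sets = 0.00075 and 0.000937) with no overlap of arrays.

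Further regional genes gave few calls. Of 35 other midbrain and hindbrain patterning genes, among them Hox genes, Gbx2, Lmx1a and the isthmic signals Fgf8 and Wnt1, 31 were measured and only 3 had a region mean above 3. In both comparisons 0 were lower than in cerebellum and 1 was higher, Sall1, a zinc finger factor, with log2 differences of 3.21 ± 0.56 SE for SVZ (limma adjusted p = 0.00385) and 2.35 ± 0.56 SE for hippocampus (adjusted p = 0.0274). The other 30 did not pass, and the median differences were 0.24 and 0.17. Microglia markers had median differences of 3.19 and 1.46 in the direction of Sall1, and their part in its signal was not tested. Among 21 measured forebrain patterning genes, 3 were higher in SVZ and 4 in hippocampus than in cerebellum, and 0 were lower. Nr2e1, a nuclear receptor of adult neural stem cells, differed by 5.85 and 5.05 (adjusted p = 0.000662 and 0.00207), and Lhx2, a homeobox factor of the cortex, by 2.71 and 3.13 (adjusted p = 0.0115 and 0.00447). Opposite the 10 genes, 1.03% of all genes were higher in SVZ and 0.808% in hippocampus.

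Known partners and targets of these factors were read from a list of 18, of which 17 were measured. Gas1, a Shh co-receptor, and Pbx3, a homeodomain cofactor, were lower in both forebrain regions. Gas1 gave -2.43 ± 0.57 SE for SVZ and -2.24 ± 0.57 SE for hippocampus (limma adjusted p = 0.0236 and 0.039). Pbx3 gave -1.29 ± 0.32 SE and -1.49 ± 0.32 SE (adjusted p = 0.031 and 0.0155). Cdon, another Shh co-receptor, was higher in hippocampus than in cerebellum (0.90 ± 0.23 SE, adjusted p = 0.0393), with means of 1.63 and 0.72 near background. The other 15 genes in SVZ and 14 in hippocampus did not pass, and the median differences were 0.20 and 0.23. Between SVZ and hippocampus 0 genes of these 3 lists passed by limma, and an unadjusted p under 0.05 was reached by 3 of the other midbrain and hindbrain genes, 3 forebrain genes and 2 partners and targets. The smallest p values there belonged to Tfap2b (0.45, adjusted p = 0.597) and Fgf8 (-0.44, 0.653), to Pax6 (-3.32, 0.531) and Otx1 (-0.56, 0.644), and to Efna2 (0.99, 0.467) and Cdon (-0.63, 0.565).

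The sorted cells of the cerebellum carried markers that, like the 10 genes, were higher there than in the forebrain regions. The mean level of the 10 genes lay between 1.02 and 2.05 on the SVZ arrays, between 1.42 and 1.96 on the hippocampus arrays and between 3.03 and 3.97 on the cerebellum arrays. Markers of Bergmann glia, the radial astroglia of the cerebellar cortex, averaged 4.21 to 6.48, 4.77 to 5.17 and 9.38 to 9.90 in the same order, and 8 of 9 measured were lower in both forebrain regions. Fabp7, a radial glial fatty acid binding protein, had means of 9.59 ± 0.31 (SD, n = 5), 9.34 ± 0.49 and 12.05 ± 0.13, and Ptprz1, the exception, 7.59 ± 0.71, 7.61 ± 0.84 and 8.22 ± 0.23. Purkinje neuron markers averaged 2.09 to 2.93, 1.87 to 2.54 and 3.11 to 4.15, and 3 of 6, Pcp2, Calb1 and Pvalb, were lower in both forebrain regions. Pvalb measured 1.67 ± 0.57, 1.41 ± 0.60 and 5.78 ± 1.06, while Rora measured 6.57 ± 1.17, 6.37 ± 0.69 and 6.37 ± 0.21. The part of Bergmann glia and Purkinje RNA in the higher signals was not tested.

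Markers of the granule neuron, the most numerous cerebellar neuron and one that expresses Zic genes, were dim in cerebellum. Their mean level lay between 1.25 and 1.65 in SVZ, 1.14 and 1.58 in hippocampus and 0.77 and 1.32 in cerebellum, and 0 of 9 measured had a cerebellum mean above 3. Cbln3 had the highest cerebellum mean, 1.44 ± 0.87 with 1 array at 2.70, the defining marker Gabra6 had 0.95 and Neurod1 1.11. Calb2 and Slc17a7 were at or under the array median on all cerebellum arrays, and the other 7 were above it on at least 1. Of the 9, only Grin2c passed, higher in both forebrain regions, with means of 4.70 ± 2.31 (SD, n = 5), 5.17 ± 1.47 and 1.22 ± 0.23, and Cbln1 had 0.99 ± 0.20, 1.04 ± 0.25 and 1.24 ± 0.49. Markers of the leptomeninges, which also express Zic genes, averaged 0.83 to 1.79, 1.09 to 1.96 and 1.20 to 1.41, and 0 of 10 passed by limma (2 against SVZ and 4 against hippocampus had an unadjusted p under 0.05). Col1a2 had means of 2.53 ± 1.42, 2.55 ± 2.05 and 4.76 ± 0.83, Col1a1 had 3.12 ± 1.49, 2.45 ± 1.03 and 1.49 ± 0.33, and Lum, Slc22a6, Slc6a13, Foxc1, Foxd1 and Aldh1a2 were at or under the array median on all cerebellum arrays. Markers of neurons in general averaged 1.11 to 2.01, 1.13 to 2.02 and 1.42 to 2.67. By limma 0 of 8 were called (0 and 1 at an unadjusted p under 0.05). Snap25 had means of 4.06 ± 1.86, 3.60 ± 1.57 and 5.72 ± 1.44, and Nefl had 1.34 ± 0.53, 1.47 ± 0.75 and 2.28 ± 0.89. How much of the levels of the 10 genes came from granule neurons, other neurons or leptomeninges was not tested.

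Markers of cells outside the astroglial gate varied by pool. Microglia markers averaged 3.40 to 6.48 in SVZ, 3.00 to 5.36 in hippocampus and 1.39 to 2.85 in cerebellum, and 4 of 10 were higher in SVZ and 2 in hippocampus than in cerebellum. Their brightest genes were Laptm5, with cerebellum levels of 4.18 ± 1.53 (SD, n = 5), and Csf1r, with 3.54 ± 0.99. Choroid plexus markers ranged from 1.71 to 2.70, 2.60 to 8.13 and 1.83 to 7.62, with Ttr at 8.40 ± 1.93, 12.82 ± 1.14 and 11.89 ± 2.93 and Kcne2 at 1.03 ± 0.35, 4.51 ± 2.91 and 3.76 ± 2.57. Among oligodendrocyte markers, whose list means lay between 2.33 and 4.03, Cnp was brightest at 8.15 ± 0.29, 7.20 ± 0.61 and 10.18 ± 0.21, followed by Mbp at 4.76 ± 1.80, 2.55 ± 1.34 and 2.39 ± 0.97. Ependymal markers averaged at most 1.43, 3.34 and 3.04, led by Dynlrb2 and Rsph1 with cerebellum means of 2.88 and 2.63. Endothelial and pericyte markers averaged at most 4.00, 3.90 and 2.52, led by Rgs5 and Pdgfrb with cerebellum means of 4.82 and 3.47. The part of these cells in the levels of the 10 genes was not tested.

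**Figure D4:**
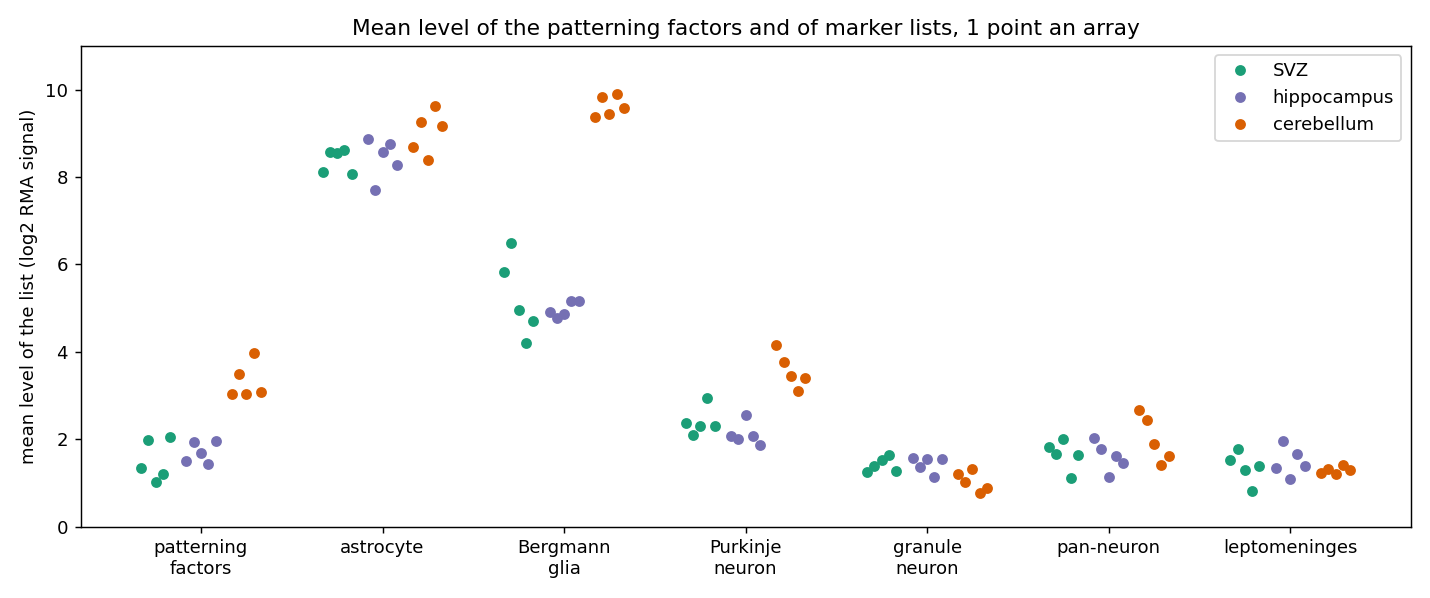
Mean level (log2 signal) per array of the 10 genes and of marker lists for astrocytes, Bergmann glia, Purkinje neurons, granule neurons, neurons in general and leptomeninges, 5 arrays per region. The 10 genes and the Bergmann glia markers are higher on all cerebellum arrays than on any forebrain array, and granule neuron markers stay at or under 1.65.

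A technical signal also moved with region. The spike-in controls, bacterial transcripts that are added to the RNA, averaged 12.56 ± 0.85 (SD, n = 5) on the SVZ arrays, 12.46 ± 0.55 on the hippocampus arrays and 10.28 ± 1.60 on the cerebellum arrays, with the lowest levels on cerebellum 4 and cerebellum 5. With the spike-in level of each array in the fit, 2 genes passed against SVZ (En2 and Pax3) and 1 against hippocampus (Pax3), and its part in the differences was not tested beyond that fit. Without cerebellum 4 and cerebellum 5 En2, Pax3 and Zic4 passed in both comparisons, with 3 arrays left in that region. Leaving out 1 array gave between 4 and 7 calls against SVZ, with 4 without SVZ 3, cerebellum 2 or cerebellum 4. Against hippocampus it gave between 2 and 6, with 2 without hippocampus 3, cerebellum 2 or cerebellum 4, and 3 without hippocampus 1, 4 or 5.

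The genes whose pattern over the 15 arrays was most like the mean of the 10, each scaled to the same spread, were sought among 5993 genes with a region mean above 3. Mob3b, a kinase coactivator family gene, had the highest Pearson's r at 0.96, with means of 0.93 ± 0.21 (SD, n = 5) in SVZ, 1.40 ± 0.25 in hippocampus and 4.52 ± 1.05 in cerebellum. Gjc3, a connexin of glia, followed at 0.94 with means of 1.57 ± 1.36, 0.81 ± 0.20 and 5.58 ± 0.45. Ust, a glycan sulfotransferase, had an r of 0.94 and means of 1.00 ± 0.22, 1.08 ± 0.49 and 4.82 ± 0.74. Sfrp2, a secreted modulator of Wnt signals, had 0.94, with 1.08 ± 0.13, 1.03 ± 0.18 and 3.21 ± 0.77, and 0610040J01Rik had 0.94, with 1.94 ± 0.78, 1.62 ± 0.34 and 6.11 ± 0.13. Each of these genes met the filter on a region mean above 3 only through its cerebellum mean. These correlations describe 15 arrays in 3 regions, share each array's RNA, and are set mainly by the step from forebrain to cerebellum.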

How the data were processed

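The values came from 15 Affymetrix mouse arrays. The authors deposited log2 signals normalized with RMA, per the submitters' processing notes, which give no version and no log base; log2 was inferred from array maxima of 14.97 to 15.08, while array medians of 1.12 to 1.31 are low for RMA, so the scale of low signals is uncertain. RNA was amplified with the WT-Ovation Pico system before labelling, per the labels' protocols. RMA as usually run sets all arrays to a shared distribution of probe signals. On these arrays the share of probe sets above 3 still ranged from 15.14% to 22.45% and was highest in cerebellum. The values carry no detection calls. Background was judged from the array medians and the number of arrays limits precision.

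The platform annotation gave 1 symbol for 34958 of 45101 probe sets, several for 932 and none for 9211, and 34754 were matched to a current symbol by Entrez identifier. After 64 control probe sets were left out, each of 18193 genes was represented by its probe set of highest mean level. limma 3.58.1 in R 4.3.3 (data.table version 1.17.8) fitted region over all 15 arrays, with Benjamini-Hochberg adjustment across genes, or across probe sets where stated, and a threshold of 0.05. The fit was tested on simulated data. Summaries used Python 3.11.15, pandas 2.3.3 and SciPy 1.17.1, and figures matplotlib 3.10.9. Promoter windows, gene positions and symbols came from RefSeq (build GRCm38.p6).

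The members and lists were chosen with earlier results of these data known. All members were named. From the paralogs called genes were named, from the lists of other regional genes and of partners the 2 largest called differences per direction or, with none called, the 2 smallest p, from marker lists the 2 genes with the highest level, and the 5 genes most alike in pattern. Genes outside this rule were named after their values were seen. Arrays with equal replicate numbers were not treated as pairs. The alternatives were a replicate block, quantile normalization, median centring, the spike-in level as a covariate, probe set rules, a filter and a floor on dim signals, other variance models, only the regions compared, the thresholds of the series design, and leaving out arrays.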

Additional observations from a re-analysis of the deposited data

Results flagged for a closer look

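In 3 of 30 groups of 5 arrays, 1 per gene and region, the highest or lowest array stood apart from the others by more than 0.71 of the group's range, which chance gives in about 5% of groups. Irx1 measured 1.92 on SVZ 2, where the other SVZ arrays lay between 0.90 and 1.17. Zic2 measured 0.99 on hippocampus 3, where the other hippocampus arrays lay between 3.17 and 3.79. Zic4 measured 1.57 on hippocampus 1, where the other hippocampus arrays lay between 0.89 and 1.05.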

How the results depend on the processing

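No member changed direction among its called differences in the settings run. Against SVZ, 7 genes passed in the fit described above, 4 with values below 2 set to 2 and 2 with the spike-in covariate. Under the thresholds of the series design 3 passed. With only genes whose region mean was above 3, 4 passed (4 members tested). Pax3, Irx2 and Zic2 met that filter only through their cerebellum mean, so this count is no separate support. Against hippocampus, 6 passed, 3 with values below 2 set to 2, 3 with only the 2 regions compared, 1 with the spike-in covariate and 3 under the thresholds of the series design. The count against hippocampus was 8 when probe sets of a gene were averaged and 7 with median centring or array weights. Over all genes the calls against hippocampus rose as well, from 869 to 1151, 1062 and 1225 in these settings. With only the 2 regions compared, 1056 of all genes passed against hippocampus. With values below 2 set to 2, 692 of all genes passed against SVZ and 614 against hippocampus. In settings chosen after seeing the data, leaving out cerebellum 4 and 5 gave 3 and 3, and leaving out SVZ 1 and hippocampus 3 gave 4 and 2. Leaving out each array in turn gave 4 to 7 against SVZ and 2 to 6 against hippocampus. Between SVZ and hippocampus 0 passed in every setting run.

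Replicate numbers were not taken as pairs, since the labels give no shared source. After each region's mean was removed, the levels of all genes were correlated between arrays of different regions. A correlation over 0.1 was found in 2 of 15 same-number pairs and 2 of 60 other pairs, a larger share for equal numbers. The ranges were -0.105 to 0.189 and -0.192 to 0.452, so the highest value was between different numbers. Of 15 arrays 7 correlated best with an array of their own number, and whether equal numbers share a source was not tested. With the replicate block 6 members passed against SVZ (Irx2 did not), 4 against hippocampus (En2, Irx5, Pax3 and Zic2) and 0 between SVZ and hippocampus. Over all genes, 1002 passed against SVZ and 869 against hippocampus, with 609 and 492 after quantile normalization and 184 and 212 with the spike-in covariate. Of the 10 members 4 had a region mean above 3, and the cause of the changes in count was not tested.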
